A study of Mus musculus with 12 samples.

Results

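The 9 genes described here are widely used markers of astrocytes, taken by name from a list: Aldh1l1, Aqp4, Gja1, Gjb6, S100b, Ntsr2, Apoe, Clu and Glul. They are 9 of 55401 gene identifiers in a table of read counts from cultured cells of the mouse subventricular zone, and all 9 were found in it by their symbols in GENCODE release M21. The mice were of the CD1 strain, and poly(A) RNA of 12 libraries, 4 per group, was sequenced with a stranded kit. Postnatal oligodendrocyte precursor cells (OPC) were taken from pups of postnatal day 0 to 2 as neurospheres, which were dissociated and held as a monolayer for 2 days in FGF (10 ng/mL) and PDGF-AA (10 ng/mL). Adult neural stem cells (NSC) were neurosphere cultures of mice aged 2 months. Postnatal NSC were neurosphere cultures of pups of postnatal day 0 to 2. Neurospheres float as clusters of stem and progenitor cells, and these were kept 6 to 7 days in FGF (10 ng/mL), EGF (20 ng/mL) and heparin (2 ug/mL). All media were serum-free with 2% B27. Per the labels the cultures came from 4 independent litters, no sort of the cells is named, and no group is labelled as astrocytes.

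Astrocytes clear glutamate and potassium from around synapses, pass small molecules to each other through gap junctions, move water at the blood vessels, and secrete the lipoproteins that carry cholesterol in the brain. Neural stem cells of the subventricular zone belong to the same glial lineage and share many of these transcripts. These genes are thus not specific to astrocytes in a culture of stem cells. In bulk RNA, fewer cells of a type and less RNA per cell cannot be told apart, and this holds for every level given here.

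Total gene counts were 17226501 to 23651396 in postnatal OPC, 16756231 to 20064043 in adult NSC, and for postnatal NSC they were 38928989 to 54801726. Depth thus follows the groups, and with all libraries thinned to the smallest total the 24 tests of the 8 testable genes kept their direction and their side of the threshold. Levels are CPM, counts per 1000000 of the library size (tested genes, TMM-normalised), given as mean ± SD of n = 4 libraries or per library in the order of replicates 1 to 4. Changes are log2 fold changes ± SE, the first-named group over the second, from a single quasi-likelihood fit in edgeR to the 16135 genes tested, with Benjamini-Hochberg adjustment over all of them and a call at an adjusted p under 0.05. The 3 comparisons share libraries, so their values are set side by side and not counted as separate evidence. The labelled cells were checked with markers: 12 genes of oligodendrocyte precursors summed to 10200 to 15100 CPM in postnatal OPC, 5090 to 5410 CPM in adult NSC and 5990 to 6340 CPM in postnatal NSC. The 15100 CPM was that of postnatal OPC 2, with 10200 to 10300 CPM in the other postnatal OPC libraries. Much of each sum came from Ptprz1, at 4750 ± 331 CPM in postnatal OPC, 2920 ± 61.7 CPM in adult NSC and 2770 ± 188 CPM in postnatal NSC. Genes of the G1/S phase were low in postnatal OPC 2 (a mean of 4.26 log2 CPM) and in postnatal NSC 3 (4.65), against 5.73 to 6.47 in the other 10 libraries.

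Of the 9 genes, 8 passed the filter on low counts and 1, Gjb6, did not. Apoe, S100b, Ntsr2 and Aqp4 were lowest in adult NSC, while Aldh1l1 and Gja1 were lowest in postnatal OPC. Glul had its highest mean in postnatal OPC, and Clu differed between adult and postnatal NSC by 1.88-fold. Compared per length, as CPM per kilobase of exon (CPM/kb), Apoe had the highest level in both postnatal groups, at 285 ± 92.3 CPM/kb in postnatal OPC and 379 ± 217 CPM/kb in postnatal NSC. Aldh1l1 had the highest level in adult NSC, at 217 ± 9.46 CPM/kb, where Apoe had 16.4 ± 2.07 CPM/kb. Aldh1l1, Glul and Apoe were the 3 genes of highest level per length in postnatal OPC and in postnatal NSC. In adult NSC the first 3 were Aldh1l1, Glul and Gja1.

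**Figure D1:**
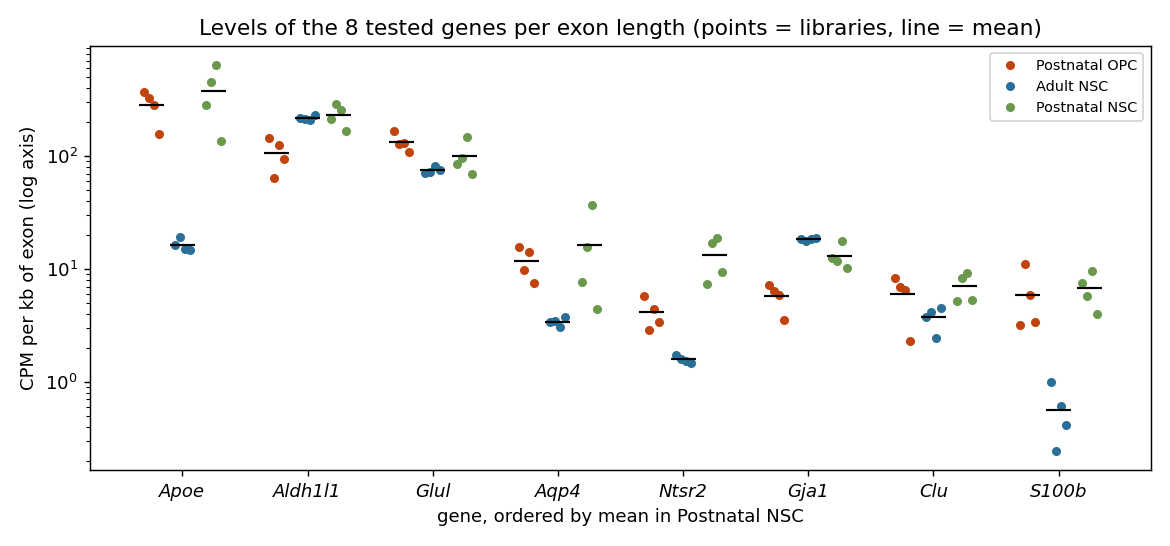
Level of the 8 tested genes in CPM per kilobase of exon (log axis), one point per library and a line at the mean of 4, for postnatal OPC, adult NSC and postnatal NSC. Apoe, Aldh1l1 and Glul lie above the other 5 genes in both postnatal groups, and Apoe in adult NSC lies near Gja1.

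Sequences before the transcription starts are shown for 2 genes that were lowest in adult NSC, Apoe and S100b, and for the 2 that were lowest in postnatal OPC, Gja1 and Aldh1l1. They are the 250 bases before the RefSeq start on GRCm38.p6, 5′ to 3′ on the strand of the gene, at chr7:19699189-19699438 (minus), chr10:76253586-76253835 (plus), chr10:56377050-56377299 (plus) and chr6:90550543-90550792 (plus). The start used for Aldh1l1 lies 64366 bases inside the GENCODE gene, and those of the other 3 genes lie within 30 bases of the GENCODE start. Capitals mark matches to any of 4 motifs on either strand.
Apoe: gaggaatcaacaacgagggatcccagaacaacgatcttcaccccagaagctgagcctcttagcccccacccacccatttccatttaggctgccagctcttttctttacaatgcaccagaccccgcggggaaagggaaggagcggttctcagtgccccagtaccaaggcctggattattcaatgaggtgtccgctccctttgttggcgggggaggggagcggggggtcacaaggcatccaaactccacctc
S100b: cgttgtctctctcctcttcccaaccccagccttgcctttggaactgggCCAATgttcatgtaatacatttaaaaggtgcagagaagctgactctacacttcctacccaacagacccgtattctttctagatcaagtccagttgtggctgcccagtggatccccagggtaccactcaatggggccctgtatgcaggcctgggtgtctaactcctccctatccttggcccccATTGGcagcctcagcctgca
Gja1: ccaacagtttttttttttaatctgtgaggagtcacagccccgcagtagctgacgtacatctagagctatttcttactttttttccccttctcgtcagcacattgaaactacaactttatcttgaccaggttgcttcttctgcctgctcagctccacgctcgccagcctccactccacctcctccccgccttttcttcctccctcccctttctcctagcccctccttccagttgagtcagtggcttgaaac
Aldh1l1: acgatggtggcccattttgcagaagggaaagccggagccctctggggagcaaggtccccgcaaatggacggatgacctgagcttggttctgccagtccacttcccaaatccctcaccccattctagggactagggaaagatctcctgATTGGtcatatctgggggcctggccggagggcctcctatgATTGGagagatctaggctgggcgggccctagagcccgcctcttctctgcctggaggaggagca
The motifs were the TATA box (TATAAA), the CCAAT box (CCAAT), the STAT palindrome (TTCNNNGAA) and the NFI palindrome (TTGGC and its reverse complement, 5 bases apart). S100b and Aldh1l1 each held 2 CCAAT boxes, and the windows of Apoe and Gja1 held none of the 4 motifs. Windows were read for 7 of the 9 genes. Those of Aqp4 and Clu were not read, so nothing is said of them or of their place in RefSeq. Among the 7 genes, Glul also held 2 CCAAT boxes and Ntsr2 held 1 STAT palindrome. Of 32536 such windows of all genes, 33.8% held a CCAAT box, 12.3% a TATA box, 7.04% a STAT palindrome and 0.0369% an NFI palindrome. A further RefSeq start of Apoe, 567 bases inside the gene, had 2 overlapping TATA matches before it. A match is a description of the letters in the window, and a window without one says nothing about the factor.

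The enzymes are taken first. Aldh1l1 encodes the cytosolic 10-formyltetrahydrofolate dehydrogenase, which removes one-carbon units from the folate pool. It is a protein-coding gene on the plus strand of chromosome 6 (GRCm38, 90486427 to 90600203), and 10.0% of its 50-base stretches also occur in Gm15756 or Gm45901, which together held 5 counts in the table. Its levels in postnatal OPC were 654, 292, 573 and 423 CPM. In adult NSC they were 976, 969, 937 and 1039 CPM, and in postnatal NSC 974, 1298, 1163 and 753 CPM. Every postnatal OPC library lay below every library of the other groups. The mean was 486 ± 161 CPM in postnatal OPC, 980.3 ± 42.7 CPM in adult NSC and 1047 ± 237 CPM in postnatal NSC. Aldh1l1 was 2.16-fold lower in postnatal OPC than in postnatal NSC (log2 fold change -1.11 ± 0.22, adjusted p = 0.00167 by edgeR quasi-likelihood). It was also lower than in adult NSC (-1.01 ± 0.22, adjusted p = 0.00237 by edgeR quasi-likelihood). Adult and postnatal NSC differed by less than their spread (-0.095 ± 0.22, 95% interval -0.57 to 0.38, adjusted p = 0.732 by edgeR quasi-likelihood).

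Glul encodes glutamine synthetase, which turns the glutamate taken up by astrocytes into glutamine. The gene lies on chromosome 1 (153899944 to 153909723, plus strand), and 12.6% of its 50-base stretches are shared with other genes, among them the pseudogene Glns-ps1, whose counts came to 0.793% of those of Glul. How reads that map to more than one gene were handled is not given in the sources used here, so the level of Glul carries that uncertainty. Postnatal OPC libraries had 554, 429, 436 and 362 CPM. Adult NSC libraries had 236, 243, 269.9 and 248 CPM, and postnatal NSC libraries 285, 322, 489 and 233 CPM. All postnatal OPC libraries were above all adult NSC libraries, and the postnatal NSC libraries overlapped both. Glul was 1.78-fold higher in postnatal OPC than in adult NSC (445 ± 80.0 against 249 ± 14.5 CPM, log2 fold change 0.84 ± 0.20, adjusted p = 0.00364 by edgeR quasi-likelihood). Against postnatal NSC (332 ± 111 CPM) the difference of postnatal OPC was 0.42 ± 0.20 (95% interval -0.0012 to 0.85, adjusted p = 0.0956 by edgeR quasi-likelihood). It passed without postnatal NSC 3 (0.67, adjusted p 0.00254 by edgeR quasi-likelihood, with a range of 0.00233 to 0.311 over its settings). Adult against postnatal NSC gave -0.41 ± 0.20 (adjusted p = 0.0917 by edgeR quasi-likelihood), and it passed without postnatal NSC 4 (-0.59, adjusted p 0.0157 by edgeR quasi-likelihood, with a range of 0.0157 to 0.336 over its settings).

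Membrane channels and a receptor make up the next 4 genes. Gja1 encodes connexin 43, the main gap junction protein of astrocytes, which stem cells and fibroblasts also make. Its place is chromosome 10 (56377330 to 56402513, plus strand). Its levels were 74.2, 65.0, 60.5 and 36.4 CPM in postnatal OPC, 190.01, 181, 188 and 195 CPM in adult NSC, and 128, 121, 180.1 and 104 CPM in postnatal NSC. No library of one group reached into another group, so that the order ran from adult NSC through postnatal NSC down to postnatal OPC. Gja1 was 2.26-fold lower in postnatal OPC than in postnatal NSC (59.0 ± 16.1 against 133 ± 32.7 CPM, log2 fold change -1.18 ± 0.20, adjusted p = 0.000577 by edgeR quasi-likelihood). Against adult NSC (188 ± 5.79 CPM) it was 3.19-fold lower (-1.67 ± 0.20, adjusted p = 3.38e-05 by edgeR quasi-likelihood). The difference of adult from postnatal NSC just missed the threshold (0.497 ± 0.20, adjusted p = 0.0504 by edgeR quasi-likelihood) although the libraries did not overlap. It passed without postnatal OPC 4 (0.50, adjusted p 0.0127 by edgeR quasi-likelihood) and without postnatal NSC 3 (0.67, adjusted p 0.0103 by edgeR quasi-likelihood, with a range of 0.00737 to 0.161 over its settings).

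Gjb6 encodes connexin 30, the other gap junction protein of grey matter astrocytes, which appears late in their development. The gene, on chromosome 14 (57123303 to 57133611, minus strand), was at the limit of detection. One read was counted in postnatal OPC (replicate 4), none in adult NSC and 6 in postnatal NSC (replicates 2 and 3), or 7 reads among 329483575. A count of 0 over the 4 adult NSC libraries allows a level of up to 0.0419 CPM, an upper limit for counting error alone, because reads counted without molecular identifiers can stem from 1 molecule. No fold or test is given for it.

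Aqp4 encodes aquaporin-4, the water channel of astrocyte endfeet, which ependymal cells also make. It lies on chromosome 18 (15389496 to 15410982, minus strand). In postnatal OPC it had 98.0, 60.9, 88.5 and 46.9 CPM, in adult NSC 21.2, 21.6, 19.0 and 23.4 CPM, and in postnatal NSC 47.8, 97.03, 232 and 27.4 CPM. Adult NSC libraries were the lowest and the most alike, whereas postnatal NSC libraries spread 8.45-fold, with replicate 3 at the top and replicate 4 close to the adult level. Aqp4 was 4.75-fold lower in adult than in postnatal NSC (21.3 ± 1.81 against 101 ± 91.9 CPM, log2 fold change -2.25 ± 0.53, adjusted p = 0.0037 by edgeR quasi-likelihood). Without postnatal NSC 3 the difference was -1.44, still past the threshold. In postnatal OPC (73.6 ± 23.7 CPM) Aqp4 was 3.46-fold higher than in adult NSC (1.79 ± 0.52, adjusted p = 0.0125 by edgeR quasi-likelihood). The difference between postnatal OPC and postnatal NSC was -0.46 ± 0.50 (95% interval -1.54 to 0.62, adjusted p = 0.476 by edgeR quasi-likelihood) and turned to 0.35 without postnatal NSC 3.

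Ntsr2 encodes the low-affinity neurotensin receptor 2, a G protein-coupled receptor that mouse astrocytes express. The gene is on chromosome 12 (16653382 to 16660227, plus strand). Levels were 18.1, 9.05, 13.7 and 10.7 CPM in postnatal OPC, 5.40, 4.99, 4.78 and 4.63 CPM in adult NSC, and 23.2, 53.2, 59.1 and 29.3 CPM in postnatal NSC. The 3 groups did not overlap, with postnatal NSC highest and adult NSC lowest, and all 3 differences passed the test. Ntsr2 was 3.20-fold lower in postnatal OPC than in postnatal NSC (12.9 ± 3.97 against 41.2 ± 17.6 CPM, log2 fold change -1.68 ± 0.29, adjusted p = 0.000646 by edgeR quasi-likelihood). It was 8.32-fold lower in adult NSC (4.95 ± 0.336 CPM) than in postnatal NSC (-3.06 ± 0.31, adjusted p = 2.2e-05 by edgeR quasi-likelihood). Postnatal OPC were 2.60-fold above adult NSC (1.38 ± 0.31, adjusted p = 0.0025 by edgeR quasi-likelihood).

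S100b encodes a small calcium-binding protein found in astrocytes and also in ependymal cells and part of the oligodendrocyte lineage. The S100b gene is found on chromosome 10 (76253853 to 76261159, plus strand). Its levels were 4.74, 16.5, 8.76 and 5.09 CPM in postnatal OPC, 1.47, 0.364, 0.901 and 0.617 CPM in adult NSC, and 11.3, 8.56, 14.2 and 5.96 CPM in postnatal NSC. Every adult NSC library lay below every postnatal library, and both postnatal groups overlapped. In adult NSC, where 60 reads were counted in 4 libraries, S100b was 11.9-fold lower than in postnatal NSC (0.839 ± 0.477 against 10.0 ± 3.54 CPM, log2 fold change -3.57 ± 0.51, adjusted p = 0.000177 by edgeR quasi-likelihood). Postnatal OPC (8.77 ± 5.45 CPM) were 10.4-fold above adult NSC (3.38 ± 0.51, adjusted p = 0.000171 by edgeR quasi-likelihood). Postnatal OPC and postnatal NSC differed by -0.19 ± 0.42 (95% interval -1.11 to 0.73, adjusted p = 0.746 by edgeR quasi-likelihood).

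The genes of secreted apolipoproteins are Apoe and Clu. Apoe encodes apolipoprotein E, the main lipid carrier released by astrocytes, which microglia also make. The gene is on the minus strand of chromosome 7 (19696109 to 19699188). Postnatal OPC had 793, 703, 608 and 337 CPM, adult NSC 35.1, 41.3, 32.0 and 31.7 CPM, and postnatal NSC 611, 974, 1367 and 293 CPM. The adult NSC libraries formed a narrow band far below all 8 postnatal libraries, and both postnatal groups overlapped, each with replicate 4 lowest. Apoe was 23.1-fold lower in adult than in postnatal NSC (35.03 ± 4.43 against 811 ± 463 CPM, log2 fold change -4.53 ± 0.44, adjusted p = 1.46e-05 by edgeR quasi-likelihood). The size of that difference exceeded those of 99% of all genes tested in the comparison. Against adult NSC, Apoe was 17.4-fold higher in postnatal OPC (610.05 ± 197 CPM, 4.12 ± 0.43, adjusted p = 1.01e-05 by edgeR quasi-likelihood). Between postnatal OPC and postnatal NSC the difference was -0.41 ± 0.38 (95% interval -1.23 to 0.40, adjusted p = 0.393 by edgeR quasi-likelihood).

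Clu encodes clusterin, also called apolipoprotein J, a secreted chaperone of astrocytes, ependyma and choroid plexus. It lies on chromosome 14 (65968483 to 65981547, plus strand). It had 28.8, 23.8, 22.2 and 7.97 CPM in postnatal OPC, 13.04, 14.2, 8.50 and 15.5 CPM in adult NSC, and 18.0, 28.4, 31.9 and 18.2 CPM in postnatal NSC. All adult NSC libraries were below all postnatal NSC libraries, while postnatal OPC held both the lowest value and others well above the adult range. Clu was 1.88-fold lower in adult than in postnatal NSC (12.8 ± 3.06 against 24.1 ± 7.11 CPM, log2 fold change -0.91 ± 0.34, adjusted p = 0.0384 by edgeR quasi-likelihood). That call was lost without adult NSC 1, 2 or 3 or postnatal NSC 2 or 3, with differences of -0.75 to -0.96 (adjusted p between 0.0627 and 0.107 by edgeR quasi-likelihood, with a range of 0.00672 to 0.109 over its settings). For postnatal OPC (20.7 ± 8.94 CPM) against adult NSC the difference was 0.69 ± 0.34 (adjusted p = 0.108 by edgeR quasi-likelihood). It passed without postnatal OPC 4 (0.96, adjusted p 0.00746 by edgeR quasi-likelihood, with a range of 0.00746 to 0.278 over its settings). Postnatal OPC against postnatal NSC gave -0.22 ± 0.33 (95% interval -0.94 to 0.50, adjusted p = 0.615 by edgeR quasi-likelihood).

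**Figure D2:**
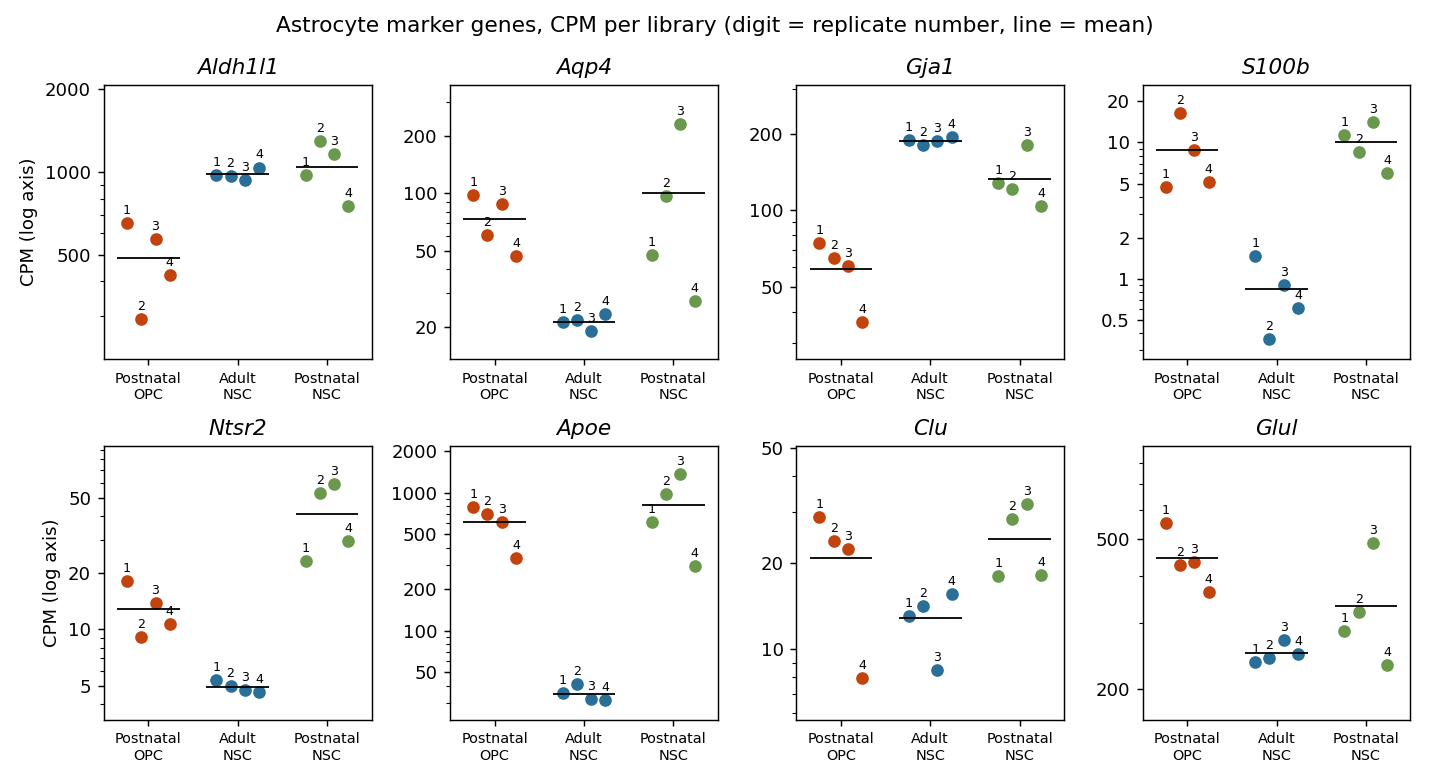
CPM of the 8 tested genes in each library (log axes with a range of their own), with the replicate number beside each point and a line at the mean of 4 libraries. Apoe, S100b, Ntsr2 and Aqp4 sit lowest in adult NSC, Aldh1l1 and Gja1 sit lowest in postnatal OPC, and adult NSC points lie close together for most genes.

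Set side by side by comparison, postnatal OPC differed from postnatal NSC in 3 of the 8 tested genes, all lower (Aldh1l1, Gja1 and Ntsr2), where 45.1% of all 16135 genes tested were called, 22.4% higher and 22.7% lower. By edgeR 0 genes were higher, also at an unadjusted p under 0.05, and 0 by DESeq2. Their libraries did not overlap in these 3 genes, and 34.9% of all genes tested had no overlap. The median log2 fold change of the 8 genes was -0.43, against -0.0083 over all genes. The total of 3 in 8 lies near the background, and so did the sizes of the differences. The median size over the 8 genes was 0.44 on the log2 scale, against 0.41 over all genes. The other 5 genes had intervals that reach across 0, the widest being that of Aqp4.

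Adult against postnatal NSC gave 5 lower genes of 8 (Aqp4, S100b, Ntsr2, Apoe and Clu) where 53.1% of all genes tested were called, 25.2% higher and 27.9% lower. By edgeR 0 genes were higher, against 1 (Gja1) at an unadjusted p under 0.05 and 0 by DESeq2. The total of 5 in 8 lies near the background. The sizes of the differences were larger: the median size over the 8 genes was 1.58 on the log2 scale, against 0.47 over all genes. The groups did not overlap in 6 of the 8 genes, against 53.2% of all genes tested, and Gja1 was the one among them that was not called.

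Postnatal OPC against adult NSC gave 5 higher genes (Apoe, S100b, Aqp4, Ntsr2 and Glul) and 2 lower genes (Gja1 and Aldh1l1), where 51% of all genes tested were called, 26.3% higher and 24.7% lower. Their libraries did not overlap in these 7 genes, which compares with 56.6% of all genes. The median log2 fold change was 1.11, against 0.0065 over all genes, and the median size was 1.53, against 0.46.

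**Figure D3:**
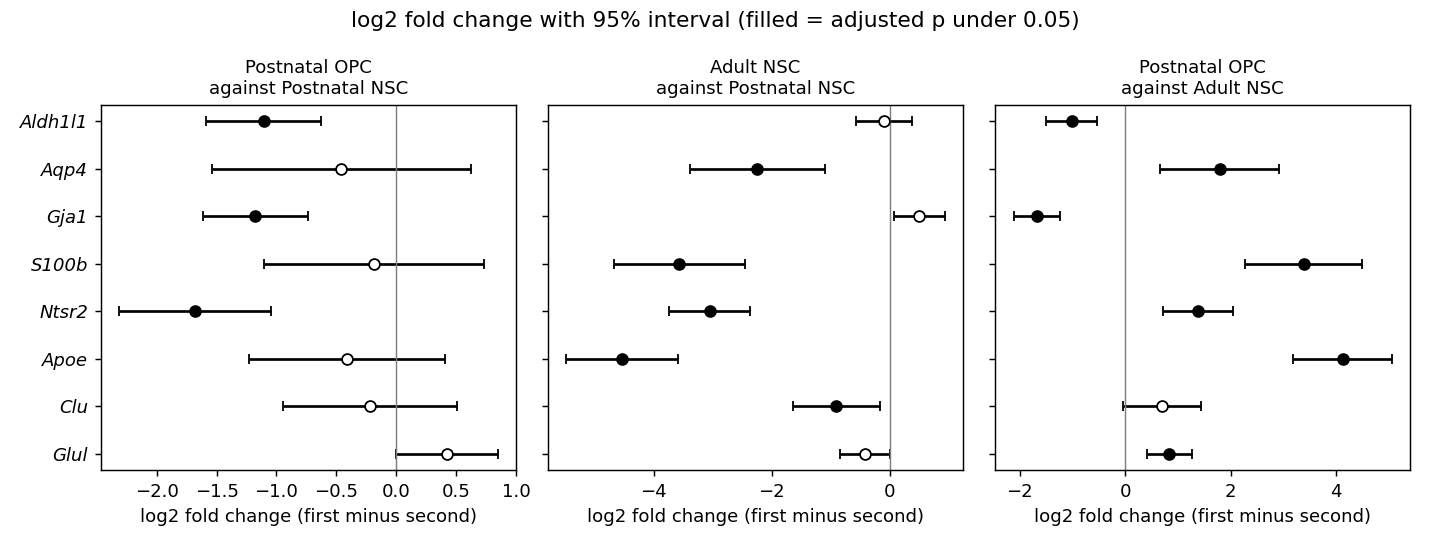
log2 fold change of each tested gene in the 3 comparisons, with its 95% interval and filled points for an adjusted p under 0.05. Apoe, S100b, Ntsr2 and Aqp4 lie left of 0 in adult against postnatal NSC and right of 0 in postnatal OPC against adult NSC, while Aldh1l1 and Gja1 lie left of 0 in both comparisons of postnatal OPC.

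The spread within a group differed between groups. The median coefficient of variation of the 8 genes was 32.3% in postnatal OPC, 7.65% in adult NSC and 34.4% in postnatal NSC, against 17.3%, 7.46% and 19.6% over all genes tested in the same groups. In postnatal NSC, replicate 3 was the highest library for 7 of the 8 genes (all but Aldh1l1), where 35.5% of all genes tested were highest in that library. Replicate 4 was the lowest for 6 genes (24.2% of all genes tested). In postnatal OPC, replicate 1 was highest for 7 genes (all but S100b, 17.8% of all genes tested), and replicate 4 was lowest for 5 (23% of all genes tested).

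Sums over other lists also differed between these libraries, in both directions. A list of 26 other astrocyte genes summed to 9020 CPM in postnatal NSC 3 and 5040 CPM in postnatal NSC 4, against 6760 and 7620 CPM in replicates 1 and 2. Genes of myelinating oligodendrocytes summed to 1030 CPM in postnatal NSC 3 and 341 CPM in postnatal NSC 4, and microglial genes to 47.5 and 21.5 CPM. Other sums were lowest in postnatal NSC 3: neural stem and radial glia genes at 8080 CPM, against 9380 to 10200 CPM in the other 3 libraries, folate genes at 434 CPM, against 607 to 815 CPM, and endothelial genes at 4.68 CPM, against 9.82 to 15.9 CPM. In postnatal OPC 1 the other astrocyte genes (6520 CPM) and the neural stem genes (8150 CPM) were at the top of their group, and the myelin genes (268 CPM) at the bottom. G1/S genes were low in postnatal NSC 3, as given above, but not in postnatal NSC 4 or in postnatal OPC 1 and 4. Sex transcripts differed too, given for replicates 1 to 4 in turn. Xist, made by female cells, was at 987, 0.163, 0 and 0.0961 CPM in postnatal OPC. It was at 1154, 0.052, 0.225 and 0.0617 CPM in adult NSC, and 0.522, 837, 1341 and 544 CPM in postnatal NSC. The Y-linked gene Ddx3y had 19.6, 59.4, 58.0 and 59.4 CPM in postnatal OPC. In adult NSC it had 0, 44.2, 48.6 and 38.55 CPM, and in postnatal NSC 37.7, 0.0702, 0 and 16.1 CPM. The part of these differences in the levels of the 8 genes was not tested. Without postnatal NSC 3 and postnatal OPC 2 together, 3 genes were lower and 1, Glul, was higher in postnatal OPC than in postnatal NSC, where the genes called in all numbered 8791, against 7276 with every library. In adult against postnatal NSC 4 were lower and 1, Gja1, was higher, so that Gja1 was gained and Clu lost (9363 genes called in all, against 8569). In postnatal OPC against adult NSC 5 were higher and 2 lower, as with every library (8979 genes called in all, against 8234).

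**Figure D4:**
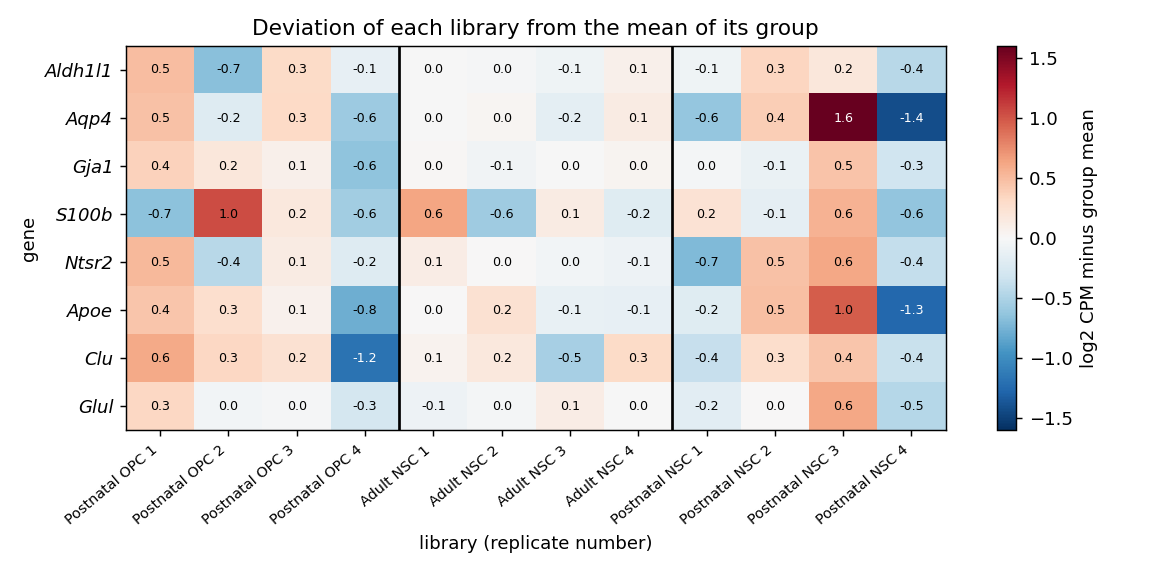
Deviation of each library from the mean of its own group on the log2 CPM scale (with 0.5 CPM added), for the 8 tested genes in rows and 12 libraries in columns. Postnatal NSC 3 is above its group mean in all 8 rows and postnatal NSC 4 below it in all 8, whereas the adult NSC columns stay near 0 except for S100b and Clu.

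Markers of other cell types were measured in the same libraries. Of 11 microglia and macrophage markers, 4 were at 0 in all postnatal OPC libraries (Aif1, Cx3cr1, C1qa and Tyrobp) and 6 in all adult NSC libraries, and Cx3cr1 and Ptprc were at 0 in postnatal NSC. The list summed to 16.7 to 19.0 CPM in postnatal OPC, 12.6 to 15.4 CPM in adult NSC and 21.5 to 47.5 CPM in postnatal NSC. Ependymal markers, of which 4 of 10 passed the filter, summed to 10.0 to 17.9 CPM in postnatal OPC, 22.5 to 23.8 CPM in adult NSC and 37.3 to 49.4 CPM in postnatal NSC, led by Foxj1. Of 8 choroid plexus markers, 1 passed the filter. The list summed to at most 12.1 CPM in any library, led by Otx2 in each group, and the transthyretin gene Ttr was at 0 in adult NSC. Endothelial markers summed to at most 15.9 CPM, led by Kdr in postnatal OPC and by Flt1 in both NSC groups, and pericyte and fibroblast markers to at most 15.8 CPM, led by Pdgfrb in postnatal OPC and Col1a1 in both NSC groups. Erythroid markers summed to at most 0.199 CPM, led by Hba-a2 in adult NSC and Hba-a1 in postnatal NSC. Myelin genes, led by Cnp, summed to 268 to 560 CPM in postnatal OPC, 152 to 193 CPM in adult NSC and 341 to 1030 CPM in postnatal NSC. Neuronal genes, led by Map2, summed to 1310 to 2010 CPM, 674 to 757 CPM and 718 to 1110 CPM in the same groups. Neural stem and radial glia genes, led by Fabp7 in postnatal OPC, Tnc in adult NSC and Vim in postnatal NSC, summed to 5030 to 8150 CPM, 12800 to 14400 CPM and 8080 to 10200 CPM. The part of these cells in the 9 genes was not tested.

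For this list and those that follow, the share of all genes tested that was called stands as background. It was 45.1% in postnatal OPC against postnatal NSC, 53.1% in adult against postnatal NSC and 51% in postnatal OPC against adult NSC. No list was tested as a set, and a count near that share says nothing particular of a list. Among 26 other astrocyte genes, all of which were tested, 1 was higher and 9 were lower in postnatal OPC than in postnatal NSC. The glutamate transporter gene Slc1a2 was the higher one (230.4 ± 46.3 against 117 ± 17.5 CPM, log2 fold change 0.98), and Gfap, the intermediate filament gene most used to stain astrocytes, was lower (22.88 ± 13.02 against 121 ± 93.9 CPM, -2.40). So was the growth factor receptor gene Fgfr3 (-1.38). In adult against postnatal NSC, 2 were higher and 12 lower, with Gfap (17.03 ± 6.70 against 121 ± 93.9 CPM, -2.83) and the cystatin gene Cst3 (89.2 ± 5.92 against 475 ± 251 CPM, -2.41) showing the largest falls. The 2 that were higher were Dio2, the enzyme gene that activates thyroid hormone (1.09), and Cbs, cystathionine beta-synthase (0.96). In postnatal OPC against adult NSC, 10 were higher and 7 lower, with Cst3 (1.596) and Mfge8 (1.36) the largest rises and Dio2 (-2.23) and Cbs (-2.18) the largest falls. The medians of the list were -0.45, -0.59 and 0.36 in these 3 comparisons. Without postnatal NSC 3 and postnatal OPC 2, the numbers higher were 2, 4 and 12 and the numbers lower 8, 12 and 7.

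Genes reported in reactive astrocytes were followed separately, against the same background shares of all genes. Of 22 listed, 14 were tested, of which 9 were lower and 5 not called in postnatal OPC against postnatal NSC, led by Emp1 (8.19 ± 3.13 against 66.0 ± 17.6 CPM, -3.02) and Cd44, a hyaluronan receptor gene (-2.59). In adult against postnatal NSC 5 were higher, led by Gbp2 (1.96) and Cd44 (1.30), and 2 were lower, led by Emp1 (-2.31). Against adult NSC, 11 were lower in postnatal OPC and 3 not called, with Gbp2 at -4.51 and Cd44 at -3.89. Median log2 fold changes were -2.16, 0.35 and -1.24.

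Transcription factors that act in glial development were listed as 16 genes, and all were tested. Relative to postnatal NSC, 8 were lower in postnatal OPC and 1 was higher, Sox9 (394 ± 144 against 207 ± 50.04 CPM, 0.93). Id1, an inhibitor of basic helix-loop-helix factors, was lowest relative to postnatal NSC (-3.43, and -2.38 without postnatal NSC 3), followed by Id3 (-2.32). In adult against postnatal NSC, 3 were higher, led by Rorb (125 ± 9.85 against 47.8 ± 1.98 CPM, 1.39) and Zbtb20 (1.00), and 6 were lower. The Notch target gene Hes5 was at -4.65 there, and at -2.74 without postnatal NSC 3, and Id1 at -2.33, and at -1.28 without that library. Postnatal OPC had 3 of them higher than adult NSC, with Hes5 at 2.67 and Id4 at 1.69, and 7 lower, led by Rorb (-2.06) and Id3 (-1.63). That call of Hes5 was lost when any 1 of 5 libraries was left out (adjusted p up to 0.0601 by edgeR quasi-likelihood).

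The partners of the single genes were followed in lists as well, and the same background shares of all genes apply to each list. For the 2 connexins, 8 of 18 other gap junction channel genes were tested, and Gjb2, which can pair with Gjb6, was not among them. Relative to postnatal NSC, 3 were higher and 1 lower in postnatal OPC. Gjd2, the connexin 36 gene of neurons, was at 1.69, a call lost when any 1 of 4 libraries was left out (postnatal OPC 2, where it was at 0.76, and postnatal NSC 1, 2 and 4; adjusted p up to 0.14 by edgeR quasi-likelihood). The pannexin gene Panx1 was at 80.1 ± 2.67 against 47.1 ± 2.81 CPM (0.77). Tjp1, a scaffold gene of cell junctions, was at -0.26. In adult against postnatal NSC 1 was higher, Tjp1 (463 ± 13.2 against 219.9 ± 19.5 CPM, 1.08), and 4 were lower, among them Gjc3 (-1.15), the connexin 29 gene of the oligodendrocyte lineage. In postnatal OPC against adult NSC 4 were higher and 2 lower, with Gjd2 at 5.45, against 4.56 without postnatal OPC 2, Panx1 at 0.87 and Tjp1 at -1.34. Without postnatal NSC 3 and postnatal OPC 2 the numbers higher were 4, 2 and 4 and those lower 3, 3 and 3.

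For Aqp4, 12 of 13 genes of other water channels and of the endfoot complex were tested. The numbers higher and lower were 1 and 2 in postnatal OPC against postnatal NSC, 2 and 4 in adult against postnatal NSC, and 2 and 3 in postnatal OPC against adult NSC. Dystrophin, the gene Dmd, was at 104 ± 3.27 CPM in postnatal OPC, 127 ± 3.86 CPM in adult NSC and 81.7 ± 10.8 CPM in postnatal NSC, and it was called in both comparisons with postnatal NSC. Its relative Utrn was 0.61 higher in adult than in postnatal NSC and at -1.08 in postnatal OPC against adult NSC, both on the log2 scale, and the adhesion protein gene Hepacam was at -0.71 there, a call that was lost without postnatal OPC 4. The 2 genes lower in postnatal OPC than in postnatal NSC, Utrn (-0.47) and the potassium channel gene Kcnj10 (-0.34), lost their calls without postnatal NSC 3 and postnatal OPC 2.

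For Glul, 12 genes of the glutamate and glutamine cycle were tested. Postnatal OPC had 4 higher than postnatal NSC, led by Slc1a2, which the list of other astrocyte genes also holds, and the amino acid transporter gene Slc38a2 (0.68), and 4 lower, led by the cystine and glutamate exchanger gene Slc7a11 (-2.06) and Got2 (-0.58). In adult against postnatal NSC 4 were higher, led by Slc38a2 (1.14) and Got1 (0.68), and 4 lower, led by the glutamate dehydrogenase gene Glud1 (267 ± 5.85 against 621 ± 273 CPM, -1.22) and Slc7a11 (-1.11). In postnatal OPC against adult NSC 3 were higher, led by the glutamine exporter gene Slc38a3 (119 ± 29.6 against 48.8 ± 8.30 CPM, 1.28) and Slc1a2 (1.14), and 5 lower, led by Got1 (-1.23). Without postnatal NSC 3 and postnatal OPC 2, 5 were higher there.

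For Apoe and Clu, 15 of 17 genes of lipoprotein handling were tested. Adult NSC had 9 lower and 2 higher than postnatal NSC, and the cholesterol exporter gene Abca1, which loads lipid onto apolipoprotein E, was at 30.9 ± 8.28 against 151 ± 96.2 CPM (-2.29). The receptor gene Lrp1 was lower as well (246 ± 41.8 against 516 ± 223 CPM, -1.07), while Lrp2 (0.73) and Vldlr (0.51) were higher. Postnatal OPC had 7 lower than postnatal NSC, led by Lrp2 (-1.58) and Sorl1 (-1.41), and 1 higher, Vldlr (0.45). Against adult NSC, 5 were higher in postnatal OPC, with Abca1 at 1.12 and Lrp1 at 0.99, and 3 lower, led by Lrp2 (-2.31) and Sorl1 (-0.94). The number lower was 5 without postnatal NSC 3 and postnatal OPC 2, and the call of Abca1 was lost when any 1 of 3 libraries was left out (adjusted p up to 0.0739 by edgeR quasi-likelihood).

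For Aldh1l1, 13 of 15 genes of folate and one-carbon metabolism were tested. Aldh1l2, its mitochondrial relative, was 1.01 higher in postnatal OPC than in adult NSC (66.6 ± 7.75 against 33.0 ± 2.09 CPM), where Aldh1l1 was lower. Adult NSC were at -0.591 relative to postnatal NSC for Aldh1l2. The folate carrier gene Slc19a1 was lower in postnatal OPC than in postnatal NSC (-1.15) and than in adult NSC (-1.27). The numbers higher and lower were 1 and 3 in postnatal OPC against postnatal NSC, 3 and 2 in adult against postnatal NSC, and 2 and 6 in postnatal OPC against adult NSC. Without postnatal NSC 3 and postnatal OPC 2, 6 were higher in adult than in postnatal NSC. For S100b, 7 of 8 genes of its family and its receptor were tested, with 5 lower in postnatal OPC than in postnatal NSC, 3 higher and 2 lower in adult than in postnatal NSC, and 4 lower in postnatal OPC than in adult NSC. S100a10 was at 4.39 ± 2.88 CPM in postnatal OPC, 97.1 ± 4.93 CPM in adult NSC and 23.0 ± 18.6 CPM in postnatal NSC, so that it was highest in the group where S100b was lowest. S100a11 was at 4.79 ± 2.71 CPM in postnatal OPC, 38.4 ± 3.30 CPM in adult NSC and 19.2 ± 6.44 CPM in postnatal NSC, and its call in adult against postnatal NSC was lost without postnatal NSC 2. For Ntsr2, neither the ligand gene Nts nor Ntsr1 passed the filter. Of 2 sorting receptor genes tested, Sort1 was not called in any comparison, and Sorcs1 was 1.19 higher in adult than in postnatal NSC and 0.87 lower in postnatal OPC than in adult NSC on the log2 scale.

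**Figure D5:**
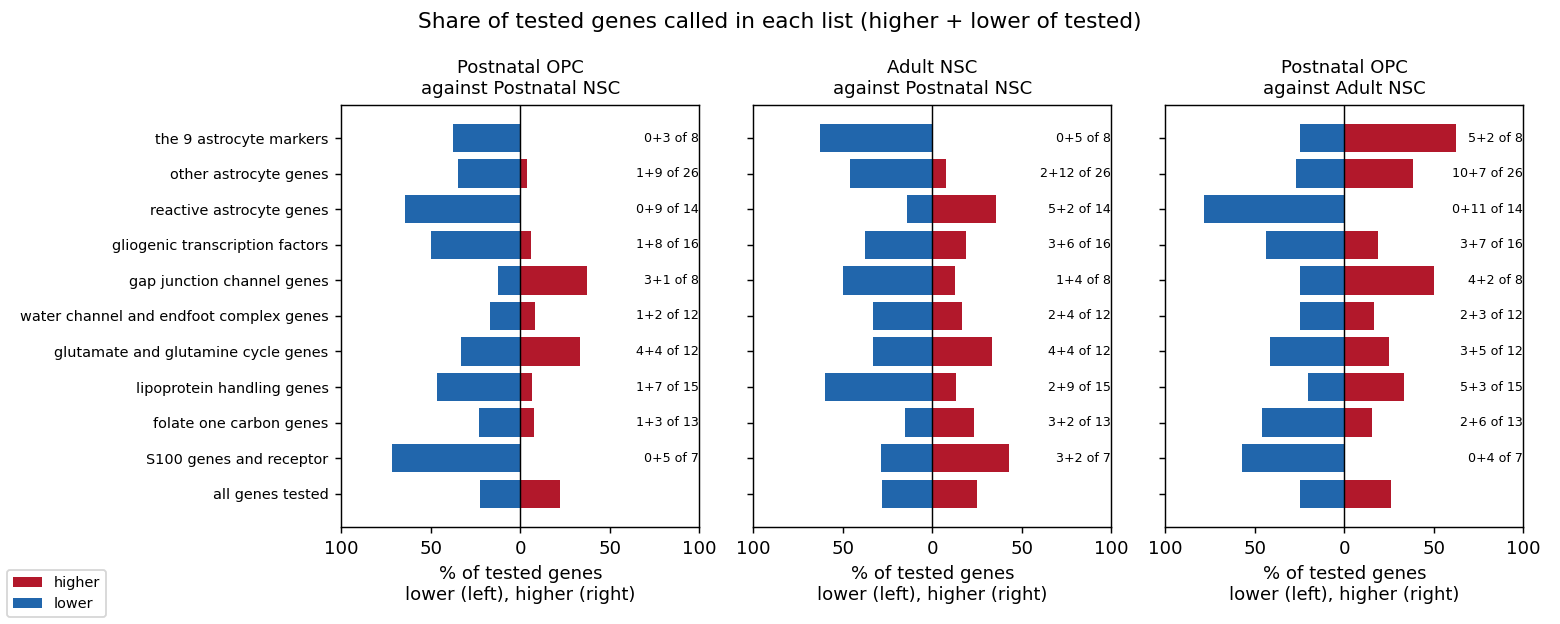
Percentage of the tested genes of each list that were higher (right) or lower (left) at an adjusted p under 0.05 in the 3 comparisons, with the numbers higher and lower of those tested, and all 16135 genes in the last row. The 9 astrocyte markers had 5 of 8 genes lower in adult than in postnatal NSC, and the genes reported in reactive astrocytes had 11 of 14 lower in postnatal OPC than in adult NSC.

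Profiles most like each gene were found among 11009 other tested genes by the root mean square (RMS) difference of log2 CPM over the 12 libraries, each profile centred on its mean. Aldh1l1 was closest to Rara (RMS 0.117) and Agtrap (0.152), and Glul to Dok5 (0.121) and Scg3 (0.139). Aqp4 was closest to Id4 (0.353) and Abhd3 (0.362), Gja1 to Cebpd (0.269) and Eda (0.27), and Ntsr2 to Capn5 (0.342) and Vcam1 (0.349). S100b was closest to Col9a2 (0.398) and Sh3bp4 (0.425), Apoe to Slc30a10 (0.304) and Vit (0.423), and Clu to Csf2ra (0.274) and Mocs1 (0.303). Slc30a10 was at 10.6 CPM in postnatal OPC, 0.179 CPM in adult NSC and 19.5 CPM in postnatal NSC. Vit was at 44.3, 1.44 and 42.3 CPM in the same groups. Both were lowest in adult NSC, as Apoe was. The likeness rests on levels in these libraries only.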

How the data were processed

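Read counts per gene, deposited by the authors without normalization, were used with 1 column for each of 12 libraries. The submitters' processing notes name FastQC, STAR, featureCounts 1.22.2 and the build GRCm38. The annotation release, the strand setting and the treatment of multi-mapped reads are not given in the sources used here. Columns were matched to samples by the age, cell type and replicate number in their names. GENCODE M21 held 55141 of the 55401 identifiers and gave symbols, coordinates and exon lengths, and the rest held at most 0.013% of a library.

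The fit used edgeR 4.0.16 under R 4.3.3: filterByExpr (minimum count 10, minimum total 15), TMM scaling and 1 quasi-likelihood model of the 12 libraries by group (biological coefficient of variation 22.6%), with two-sided tests, checked on simulated data. DESeq2 1.42.0, other scalings and filters, other fits and left-out libraries were alternatives. No pair within a group was a duplicate (smallest chi-square over its degrees of freedom 3.98). Replicates are separate litters, per the labels. The members and gene lists were chosen with earlier results of these data known. From each related list the text names genes among the 2 largest called rises and falls per comparison, where 1 group reaches 5 CPM, and Sort1, Nts, Ntsr1 and Gjb2 for their role. Some genes that this rule takes are not reported here. For each member it names the 2 closest profiles. Promoters came from RefSeq (GRCm38.p6).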

Additional observations from a re-analysis of the deposited data

Results flagged for a closer look

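Among 26 sets of 4 libraries (9 genes in 3 groups, leaving out Gjb6 in adult NSC, where all were at 0), 1 had a library far from the others. Gjb6 in postnatal OPC had 1 read in replicate 4 (0.048 CPM) and none in replicates 1 to 3, so that the gap to the nearest library was the whole range of the group, a ratio of 1. With a single read in a group the other 3 libraries tie at 0 and the ratio is 1 whichever library holds the read, so this says nothing of replicate 4. For measured values that do not tie, chance passes the limit used in about 1 set in 20.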

How the results depend on the processing

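Each of the 24 log2 fold changes was computed under 21 alternatives, giving 504 values, of which 475 kept their direction and their side of the threshold, 8 lost a call, 11 gained one and 10 changed sign. All 8 lost calls were those of Clu in adult against postnatal NSC. The sign changed for differences that were not called. In postnatal OPC against postnatal NSC, Aqp4 was at 0.43 without postnatal NSC 3 and postnatal OPC 2. It was at 0.55 with Y-linked expression, the mean level of 4 genes with Ddx3y among them, as a covariate. That covariate stands for the sex make-up of the libraries, which differed within and between groups (Xist and Ddx3y above). Without single libraries Aqp4 lay between -0.80 and 0.35 (highest without postnatal NSC 3). S100b was at 0.15 with that covariate, 0.00576 without postnatal OPC 4 and 0.028 without postnatal NSC 3, within -0.72 to 0.028 over single libraries. Clu was at 0.083 with the covariate and between -0.45 and 0.052 without single libraries (highest without postnatal OPC 4), and Apoe at 0.14 with the covariate. Aldh1l1 in adult against postnatal NSC was at 0.022 with the covariate. In that comparison the covariate also lost the call of Clu (-0.72, adjusted p 0.109 by edgeR quasi-likelihood). Gja1 gained a call there (0.58, adjusted p 0.0371 by edgeR quasi-likelihood). Glul gained one in postnatal OPC against postnatal NSC (0.64, adjusted p 0.0356 by edgeR quasi-likelihood). The cause was not tested. The number of the 9 genes called was 3 to 4, 4 to 6 and 7 to 8 when single libraries were left out (postnatal OPC against postnatal NSC, adult against postnatal NSC, and postnatal OPC against adult NSC), while the genes called in all ran from 6363 to 7938, 7417 to 9443 and 7212 to 9028. The fit with a replicate block also called 3, 5 and 7. There Clu in adult against postnatal NSC was at -0.86 (adjusted p 0.0669 by edgeR quasi-likelihood) and Gja1 at 0.53 (adjusted p 0.0323 by edgeR quasi-likelihood). The labels do not say whether a shared number marks a shared litter. Deviations of same-numbered libraries had correlations of -0.416 to 0.384, and not every library correlated best with its own number, which leaves unsettled whether litters are shared. Gjb6 was not called when nothing was filtered. The lists and their named genes without single libraries were added after seeing the data. Depth limits Gjb6 and, in adult NSC, S100b.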
